A study of Mus musculus with 6 samples.

Results

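The transcripts described here are 9 genes used as marks of lung capillary endothelium, out of 56884 genes in the count matrices: Plvap, Aplnr, Apln, Itga1, Gja5, Car4, Ednrb, Gpihbp1 and Kit. They were taken by symbol and selected because values from these same libraries were already known, and several were also singled out by the study from the same cells. Their ratios between libraries are therefore a description and carry no test. Levels were read in endothelial barcodes, which are bead barcodes with at least 2 of Pecam1, Cldn5, Egfl7 and Tie1 detected. Barcodes also needed at least 1500 UMIs (unique molecular identifiers, 1 per captured transcript) in the Bdnf libraries and at least 700 in the shallower Hgf libraries.

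The lungs came from mice at postnatal day (P) 21 of 4 genotypes, with 1 BD Rhapsody single-cell library per genotype made from 2 pooled littermates. Bdnf iPCKO and Hgf iPCKO mice carry lox/lox alleles of the growth factor gene together with the Pdgfrb(BAC)-CreERT2 transgene, which acts in PDGFRβ-positive mural cells. Their controls are labelled Bdnf lox/lox and Hgf lox/lox, labels that name no transgene. Cre activity was induced with 50 μg tamoxifen given 3 times from P1 to P3. The methods do not state separately whether controls received it. CD45+ cells and erythrocytes were removed with magnetic beads before capture. Endothelium of another organ comes from 2 further libraries, made at P12 from brain cortex of a Nodal lox/lox control and a Nodal iPCKO genotype. With 1 library per genotype there is no replicate: mutation, litter, dissection and library cannot be told apart, and intervals in the text (95%, exact) cover counting error only.

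The capillary label held only in part. Aplnr and Kit were highest in general capillary barcodes and Apln, Car4 and Ednrb in aerocyte barcodes in all 4 lung libraries, but Gja5 was highest in arterial barcodes, Plvap was also high in arterial and venous barcodes and low in aerocyte barcodes, and Itga1 was highest outside endothelium, in pericytes.

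Lung capillaries are built from different endothelial types. General capillary (gCap) cells line most of the network and act as progenitors, whereas aerocytes (aCap) are large, thin cells specialized for gas exchange that lie against the alveolar epithelium. Apelin, made by Apln, is a peptide ligand known as an aCap product in the lung, and Aplnr encodes its receptor, known from gCap cells. Pericytes wrap these capillaries and are a source of growth factors for the vessel wall and the alveolar epithelium.

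On GRCm39 the genes lie on 9 chromosomes, Apln on X (47114019 to 47123775, minus strand), Itga1 on 13 (115089632 to 115238677, minus), Gja5 on 3 (96812009 to 96984732, plus), Aplnr on 2 (84966569 to 84970267, plus), Plvap on 8 (71948674 to 71964506, minus), Car4 on 11 (84848020 to 84856879, plus), Ednrb on 14 (104052053 to 104081900, minus), Gpihbp1 on 15 (75468474 to 75471331, plus) and Kit on 5 (75735576 to 75817404, plus). Upstream sequence was found for 6 of the 9 members in the RefSeq promoter set of build GRCm38.p6. The 250 bases before the annotated start are shown for Apln, Itga1 and Gja5, the members with an entry that were lower in both mutant libraries. Capitals mark GGAA or its reverse complement TTCC, the core letters bound by ETS factors, a family that includes the endothelial regulator ERG.
Apln, chrX:48034854-48035103, minus strand: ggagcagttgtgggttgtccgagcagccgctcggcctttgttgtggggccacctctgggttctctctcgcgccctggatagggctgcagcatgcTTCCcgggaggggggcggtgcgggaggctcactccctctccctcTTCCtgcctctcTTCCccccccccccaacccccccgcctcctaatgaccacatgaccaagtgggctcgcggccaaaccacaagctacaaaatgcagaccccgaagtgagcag
Itga1, chr13:115101965-115102214, minus strand: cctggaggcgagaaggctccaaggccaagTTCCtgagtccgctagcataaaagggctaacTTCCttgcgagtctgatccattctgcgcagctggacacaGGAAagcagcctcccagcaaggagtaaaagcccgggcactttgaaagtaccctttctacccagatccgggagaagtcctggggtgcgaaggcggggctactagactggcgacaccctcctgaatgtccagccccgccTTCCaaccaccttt
Gja5, chr3:97032152-97032401, plus strand: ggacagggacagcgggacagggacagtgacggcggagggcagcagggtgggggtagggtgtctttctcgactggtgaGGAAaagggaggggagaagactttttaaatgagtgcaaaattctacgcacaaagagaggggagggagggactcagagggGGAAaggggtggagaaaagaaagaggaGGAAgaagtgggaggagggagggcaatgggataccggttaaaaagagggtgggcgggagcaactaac
These windows hold 3, 4 and 3 matches to GGAA on either strand, against a median of 3 over all 32851 windows of the same length, of which 93.4% hold at least 1. The letters ACGTG, searched on both strands and holding the core bound by hypoxia-inducible factors, occur in none of the 3 windows and in 16.6% of all windows.

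The endothelial gate took 6068 of 17154 barcodes in Bdnf control, 8841 of 24311 in Bdnf iPCKO, 6144 of 14622 in Hgf control and 8245 of 16155 in Hgf iPCKO. Median depth in the gate was 5275, 4412, 2590 and 2317 UMIs in this order, which holds for all series of 4 values below. Of 10 endothelial genes outside the gate rule, 9 were higher in the gate than in any other lineage in all 4 libraries, the exception being Cd34. Between 31 and 84 endothelial barcodes were shared by library pairs, near the 40.8 to 79.9 given by chance overlap of barcode sets. Many barcodes of the gate also held at least 50% of the markers of another lineage, 36.1, 43.8, 24.3 and 25.0% of them, with medians of 11030, 8026, 5936.5 and 5137 UMIs against 4031, 3102, 2092.5 and 1896 in the others. These mixed barcodes carry much epithelial RNA: 4 secretory epithelial genes (Sftpc, Sftpb, Sftpa1, Scgb1a1) summed to 18494, 21232, 15787 and 11719 CPM in the gate (UMIs of a gene scaled by all UMIs of the same barcodes, the counts-per-million scale) and to 1188, 1993, 1395 and 2054.5 without them. Levels over the gate are therefore given with and without mixed barcodes, and how far they account for a difference was not tested.

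The targeted gene was read first. Hgf in barcodes with pericyte markers was 149 (95.3 to 221) CPM in Hgf control, from 24 UMIs, and 32.1 (16.0 to 57.5) in Hgf iPCKO, from 11 UMIs, so the intervals do not overlap. Bdnf in the same gate was 21.9 (10.5 to 40.2) in Bdnf control and 4.94 (0.598 to 17.8) in Bdnf iPCKO, from 10 and 2 UMIs, and these intervals do overlap. In smooth muscle barcodes, also mural, Bdnf was 88.5 (70.9 to 109) and 40.2 (31.0 to 51.3) in the same libraries, intervals that do not overlap. Over all barcodes Hgf was 9.07 and 2.68 in the Hgf pair and 7.44 and 4.99 in the Bdnf pair. Bdnf was 29.8 and 27.5 over all barcodes of the Bdnf pair and 24.5 and 25.1 in its fibroblast barcodes. Hgf also differed outside pericyte barcodes, at 19.4 and 1.90 in fibroblast barcodes of the Hgf pair (54 and 3 UMIs). In endothelial barcodes without mixed ones Hgf was 21.5 and 4.00 in the Hgf pair and 17.6 and 10.3 in the Bdnf pair. These endothelial barcodes held 259 of the 577 Hgf UMIs of Hgf control. Why Hgf differed outside pericyte barcodes was not tested. Tags near the 3′ end can lie outside a deleted part, so these levels do not measure the share of deleted alleles.

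In the Bdnf pair, 5 of the 9 members were lower in the iPCKO library (Plvap, Aplnr, Apln, Itga1 and Gja5), none was higher, and Car4, Ednrb, Gpihbp1 and Kit lay within the limits. A member is called lower or higher when the log2 ratio of iPCKO over control is at least 0.5 away from 0 with an interval that leaves out 0. By the same rule 6.13% of 19022 genes were lower and 5.13% higher in this gate. Without mixed barcodes, 3 members stayed beyond the limit on the low side (Aplnr, Itga1 and Gja5) and 1 on the high side (Ednrb), where 6.36% of all genes were lower and 6.72% higher. The median log2 ratio over the members was -0.53, or -0.36 without mixed barcodes, beside -0.03 and -0.02 over all genes. The list of 10 other endothelial genes had a median of -0.25, or -0.17 without mixed barcodes, and none of its genes was called in either direction.

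In the Hgf pair, 5 members were again lower in the iPCKO library, here Aplnr, Apln, Itga1, Gja5 and Car4, and none was higher. Differences between these libraries were wider over all genes: 17.6% of 16237 genes were lower and 13.6% higher, so a call means less here than in the Bdnf pair. Without mixed barcodes the counts stayed at 5 and 0, where 17.8% of all genes were lower and 13.1% higher. The members' median was -0.59, or -0.58 without mixed barcodes, beside -0.05 and -0.06 over all genes. Of the 10 other endothelial genes, 3 were lower (Cdh5, Cd34 and Calcrl) and none higher, with a median of -0.22. Nearest the limit among called values were Plvap and Apln of the Bdnf pair, at -0.57 and -0.53, and among values not called Gpihbp1 and Plvap of the Hgf pair, at 0.47 and -0.41.

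**Figure D1:**
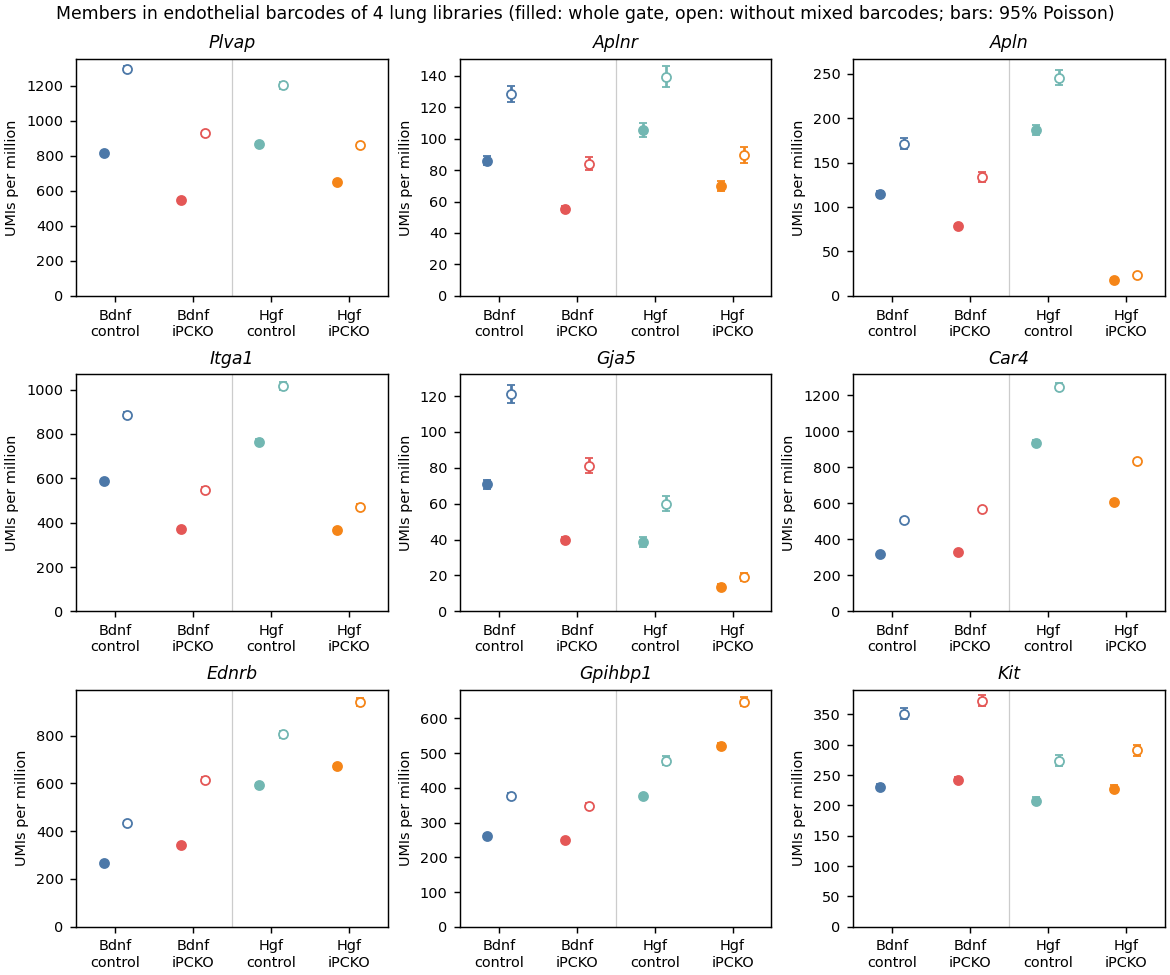
Level of each member in endothelial barcodes of the 4 lung libraries, in CPM on a linear axis from 0. Filled points are the whole gate, open points leave out mixed barcodes, and bars are 95% Poisson intervals. Apln of Hgf iPCKO lies below the other 3 libraries (18.1 against 79.0 to 187 in the whole gate), and Aplnr, Itga1 and Gja5 are lower in the iPCKO library of each pair.

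Apln, the ligand, had the largest ratio of all members. Its level was 114, 79.0, 187 and 18.1 CPM in the gate and 171, 134, 245 and 23.7 without mixed barcodes. Hgf iPCKO was thus 10.3-fold lower than its control, with a log2 ratio of -3.37 (-3.51 to -3.23), from 4046 and 482 UMIs. The Bdnf ratio of -0.53 (-0.59 to -0.48) became -0.36 without mixed barcodes and is no longer past the limit. With every barcode thinned to 700 UMIs, an Apln UMI was found in 6.95, 5.62, 9.50 and 1.41% of endothelial barcodes (22.1, 18.1, 21.1 and 4.57% before thinning), and in 0.0701, 0.0301, 0.185 and 0% of AT2 barcodes, a lineage that should lack it. The 0 of 3722 AT2 barcodes allows a share of up to 0.0991% by the exact interval. Median depth of AT2 barcodes was 8430, 5909.5, 4712.5 and 3575 UMIs before thinning. AT2 barcodes lie outside the endothelial gate by definition, so they were chosen low in endothelial RNA. Their shares therefore cannot measure background in the gate or in mixed barcodes.

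By subtype, the Apln level was highest in aCap-like barcodes, a class assigned from Tbx2, Fibin, Chst1, Prx, Sirpa, Rprml and Kdr and not from any member. There it was 1126, 743, 973 and 94.2 CPM without mixed barcodes, against 69.2, 77.2, 92.5 and 11.7 in gCap-like barcodes. In the Hgf pair the ratio was -3.37 (-3.59 to -3.16) in aCap-like and -2.98 (-3.33 to -2.65) in gCap-like barcodes, and with mixed barcodes -3.41 (-3.62 to -3.22) and -2.84 (-3.09 to -2.61), where the intervals no longer overlap. In the Bdnf pair the intervals of the classes do not overlap, with -0.60 (-0.70 to -0.50) in aCap-like and 0.16 (0.00 to 0.31) in gCap-like barcodes. With mixed barcodes the Bdnf ratios were -0.65 and -0.23 (-0.33 to -0.13), so the gCap-like one changes sign. In barcodes of 20 to under 200 UMIs, taken here as a measure of free RNA, Apln was 15.8, 15.1, 31.3 and 4.74, low in the same library. The aCap-like share of endothelial barcodes was 9.11, 8.59, 13.9 and 14.8%, close in the Hgf libraries. Rprml, a marker that assigns the class, was also low there, at 10.1 and 1.13 over the gate of the Hgf pair (218 and 30 UMIs).

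Aplnr, the receptor, was highest in gCap-like barcodes. It measured 86.0, 55.1, 105 and 69.9 CPM in the gate and 128, 84.0, 139 and 89.4 without mixed barcodes. Over the gate both iPCKO libraries were below both controls. Ratios were -0.64 (-0.71 to -0.57) in the Bdnf and -0.59 (-0.68 to -0.50) in the Hgf pair, and were -0.61 and -0.64 without mixed barcodes. The Hgf ratio was short of the limit with at least 3000 UMIs, at -0.29. Arterial-like ratios, mixed barcodes included, were -0.64 in the Bdnf and 0.19 (-0.32 to 0.72) in the Hgf pair. Venous-like ones were -0.55 and 0.06 (-0.29 to 0.40). In gCap-like barcodes alone the ratios were -0.71 and -0.70, the Bdnf one short of the limit after subtraction of free RNA (-0.37) and the Hgf one with at least 3000 UMIs (-0.48). Apela, which encodes the other known ligand of the receptor, had 62 and 170 UMIs in the Bdnf libraries, higher in iPCKO with a ratio of 1.18 (0.75 to 1.62), and 2 and 20 in the Hgf libraries, the latter under the minimum of 50 UMIs in both libraries together. Without mixed barcodes 1 and 6 UMIs were left in the Bdnf pair, too few for a ratio. AT1 barcodes held more Apela, 12.8 and 24.2, and the sum of 8 AT1 markers in the gate was 2953 and 3858.

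Itga1, the α1 subunit of a collagen-binding integrin, was lower in both pairs over the gate. The level was 586, 370, 764 and 368 CPM in the gate and 884, 549, 1017 and 473 without mixed barcodes. Ratios were -0.66 (-0.69 to -0.64) and -1.05 (-1.09 to -1.02). In gCap-like, arterial-like and venous-like barcodes without mixed ones, the Bdnf ratios ran from -0.82 to -0.52 and the Hgf ratios from -1.13 to -0.85, all with intervals below 0. With mixed barcodes the arterial-like Bdnf ratio was -0.48, short of the limit. The aCap-like ratios were -0.98 and -0.96 without mixed barcodes, but the iPCKO levels (221 and 210) lie near or below free RNA. The part of free RNA in these levels was not tested. Lymphatic-like barcodes of the Hgf pair, mixed ones included, held 149 and 167, not lower in iPCKO but below free RNA as well (397 and 248). Itga1 is no endothelial mark by itself: it was highest in pericyte barcodes, at 3162, 2653, 3094 and 1796 CPM. Pericyte ratios were -0.25 in the Bdnf and -0.78 in the Hgf pair. In the same order, smooth muscle ratios were -0.17 and -0.72 and fibroblast ratios 0.44 and 0.67. Free RNA held 301, 215, 397 and 248, lower in both iPCKO libraries as well. Of its UMIs in the gate, 3.16% lie in entries shared out over several genes, the most of any member. Itgb1, the β1 partner chain, had ratios of -0.07 and -0.48 and was called in neither pair, whereas Itga2, another collagen-binding α chain, was at 83.6, 72.8, 88.1 and 38.2 and was lower in the Hgf pair (-1.21).

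Gja5, which encodes the gap junction protein connexin 40, belongs to arterial endothelium. Arterial-like barcodes without mixed ones held 775, 482, 533 and 124 CPM, against 52.1, 38.5, 17.5 and 8.73 in gCap-like barcodes. The arterial-like ratios were -0.69 (-0.80 to -0.58) in the Bdnf and -2.10 (-2.35 to -1.86) in the Hgf pair. Over the gate the level was 70.8, 39.9, 38.6 and 13.6 with ratios of -0.83 and -1.50, and without mixed barcodes 121, 81.0, 59.9 and 19.0 with ratios of -0.58 and -1.66. The arterial-like share of the gate was 10.9, 9.84, 6.10 and 9.23%, higher in the Hgf iPCKO library whose Gja5 is lowest. Of the 8 markers that assign this class, 3 were lower over the gate of the Hgf pair (Gja4, Dkk2 and Fbln5) and 1 in the Bdnf pair (Dkk2). Membership of the class thus rests partly on genes that differed between the libraries. Gja5 was also lower in fibroblast barcodes, at 22.3 and 5.74 in the Bdnf pair (ratio -1.95, 308 and 80 UMIs). In the Hgf pair it was 16.9 and 2.75 there (-2.74, 47 and 4 UMIs). Free RNA held 15.1, 8.62, 11.1 and 6.91 of it. Of the other connexins of endothelium, Gja4 was 78, 56.2, 80.3 and 54.8, with ratios of -0.47 and -0.55, and Gja1 was 77.5, 75.8, 72 and 38.8, with ratios of -0.03 and -0.89. Gja4 and Gja1 were thus lower in the Hgf pair and called in neither direction in the Bdnf pair.

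Plvap, which forms the diaphragms of fenestrae and caveolae, was spread over gCap-like, arterial-like and venous-like barcodes, at 873 to 1765 CPM in venous-like ones without mixed barcodes. The gate held 814, 547, 866 and 653 CPM, and 1298, 929, 1204 and 860 without mixed barcodes. Ratios were -0.57 (-0.60 to -0.55) and -0.41 (-0.44 to -0.38), and both were -0.48 without mixed barcodes, just short of the limit. The Hgf ratio passed it with barcodes counted equally or thinned (-0.51) and after subtraction of free RNA (-0.86). In gCap-like barcodes the ratios were -0.79 and -0.48, and without mixed ones -0.66 and -0.54, both past the limit. Arterial-like ratios without mixed barcodes were -0.65 and -0.53, and venous-like ones -0.20 and -0.76. Thinned to 700 UMIs, 43.2, 31.9, 44.3 and 36.1% of endothelial barcodes held a Plvap UMI (79.8, 69.8, 70.9 and 64.4% before thinning). The share was 0.386, 0.452, 0.370 and 0.242% of AT2 barcodes, which lie outside the gate by definition. aCap-like barcodes held only 77, 40.3, 32.2 and 84.1 CPM without mixed ones, below the 119, 96.4, 134 and 134 of free RNA. Their ratios were -0.93 (-1.36 to -0.52) in the Bdnf and 1.39 (0.97 to 1.82) in the Hgf pair. The part of free RNA in these low levels was not tested. Among genes that build caveolae, Cavin2 was lower in the Bdnf pair (-0.53) and Ehd2 in the Hgf pair (-0.58), while Cav1 (-0.34 and -0.16) and Cavin1 (-0.04 and -0.13) were called in neither.

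**Figure D2:**
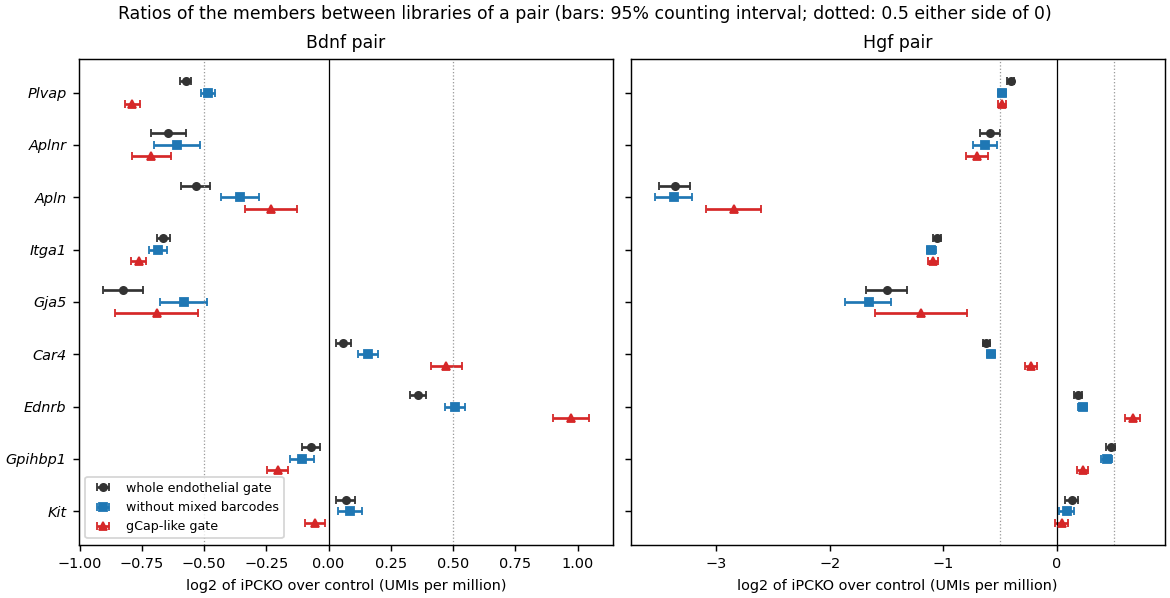
log2 ratio of iPCKO over control for each member in the Bdnf pair (left) and the Hgf pair (right, on a wider axis), in the whole endothelial gate, without mixed barcodes and in gCap-like barcodes. Bars are 95% counting intervals and dotted lines the limits of 0.5. Ednrb of gCap-like barcodes lies to the right in both pairs (0.97 and 0.67), and Apln of the Hgf pair lies far to the left of all other points.

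Ednrb, the endothelin B receptor and a known aCap mark, went the other way. The gate held 266, 341, 592 and 672 CPM and, without mixed barcodes, 433, 616, 805 and 941. Each iPCKO library was above its control, by 0.36 (0.33 to 0.39) in the Bdnf pair and 0.18 (0.15 to 0.22) in the Hgf pair, the latter turning to -0.45 when at least 3000 UMIs were asked of every barcode. In gCap-like barcodes, where its level is low, it was 91.4, 179, 226 and 359, with ratios of 0.97 (0.90 to 1.04) and 0.67 (0.60 to 0.73), both past the limit. Without mixed barcodes the gCap-like ratios were 1.17 and 0.78. Arterial-like ratios without mixed barcodes were 1.39 and 0.95, and venous-like ones 1.06 and 0.01. Outside endothelium, fibroblast ratios were 0.22 and 1.36, and smooth muscle ratios -0.29 and 0.82. Free RNA held 47.1 and 62.6 in the Bdnf and 101 and 149 in the Hgf pair. After its subtraction the gCap-like ratios were 1.61 and 0.31, the latter short of the limit. That subtraction took 76.5, 82.2, 52.9 and 31.5% of gCap-like RNA as free, against 5.63, 8.46, 5.25 and 5.47% without mixed barcodes. The gCap-like Hgf ratio was also short of the limit with at least 3000 UMIs (0.40). In the same gCap-like barcodes the 7 aCap markers had a median of 0.40 with 1 higher and none lower in the Bdnf pair, against -0.08 over the gate, and 6 with enough UMIs had a median of 0.12 with 2 higher and 1 lower in the Hgf pair. Their part in the Ednrb ratios was not tested. The level of Ednrb was highest in aCap-like barcodes (2898, 3411, 3298 and 3856 without mixed ones), where the ratios were 0.24 and 0.23. Edn1, a ligand of the receptor, was 231 and 256 in the Bdnf pair and 215 and 319 in the Hgf pair, higher in the latter (0.57).

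Car4, a membrane-bound carbonic anhydrase that speeds the release of carbon dioxide, is the second aCap mark of the list. Its level was 319, 333, 937 and 610 CPM, and 508, 566, 1249 and 834 without mixed barcodes. The Hgf ratio was -0.62 (-0.65 to -0.59) and the Bdnf ratio 0.06 (0.03 to 0.09). In aCap-like barcodes without mixed ones it was 3490, 3258, 4932 and 3303, so that 3 libraries lay close together and Hgf control stood above them. The Bdnf ratio was higher in classes with little Car4, at 0.66 in gCap-like, 1.90 in arterial-like and 1.17 in venous-like barcodes without mixed ones, of which the arterial-like and venous-like levels (13.1 to 54.2) lie below the 61.7 and 70.7 of free RNA. The Hgf ratio was -1.17 with at least 3000 UMIs per barcode, but short of the limit with every barcode counted equally (-0.33), with barcodes thinned to 700 UMIs (-0.30) and with classes weighted to the control mix (-0.45). The thinned share of endothelial barcodes with a Car4 UMI, 25.4% in Hgf control and 24.8% in Hgf iPCKO, was close in the 2 libraries. Of the other carbonic anhydrases listed, Car8 was lower in the Hgf pair (-1.11), Car14 in the Bdnf pair (-0.74), and Car2 in neither.

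**Figure D3:**
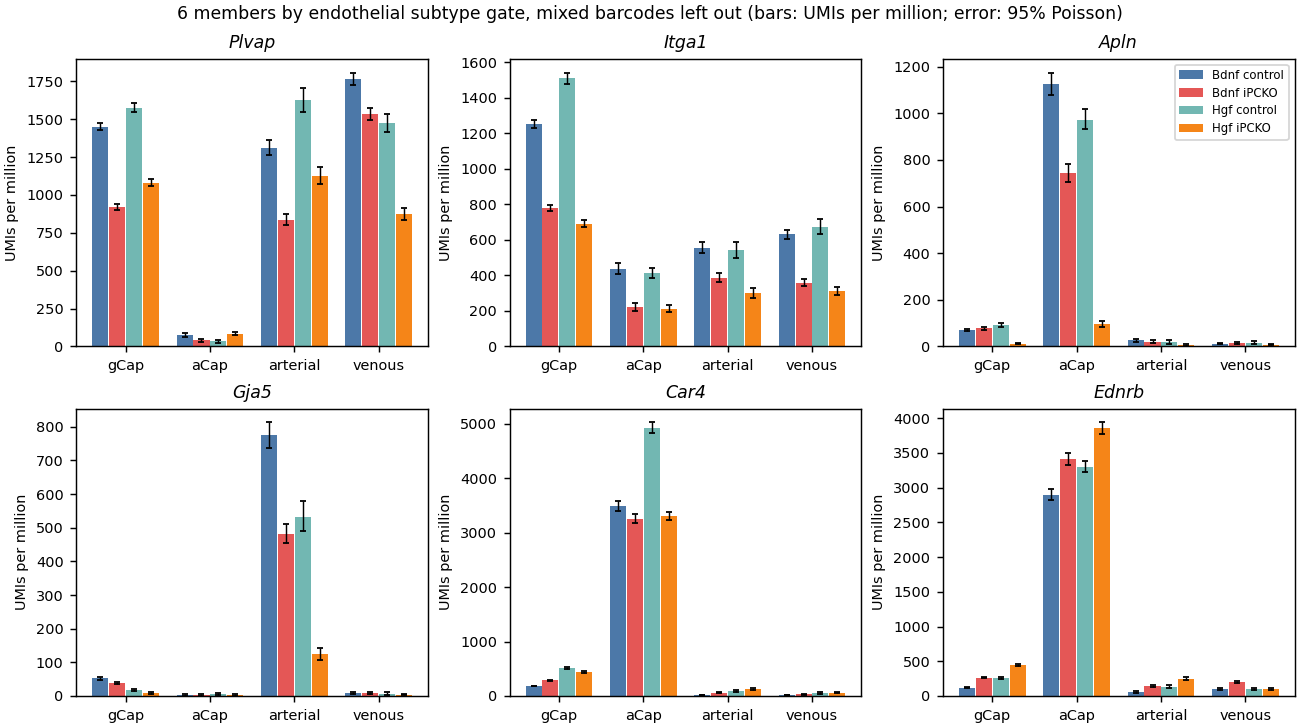
Levels of 6 members in CPM by endothelial subtype class, mixed barcodes left out, with 1 bar per lung library and 95% Poisson intervals. Apln, Car4 and Ednrb stand in aCap-like barcodes and Gja5 in arterial-like barcodes. The Hgf iPCKO bars of Apln (94.2 in aCap-like) and Gja5 (124 in arterial-like) are the lowest of their classes.

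Gpihbp1 encodes the protein that carries lipoprotein lipase across capillary endothelium and holds it at the luminal surface. It measured 262, 250, 375 and 521 CPM in the gate and 376, 349, 478 and 648 without mixed barcodes. The ratios of -0.07 (-0.11 to -0.04) and 0.47 (0.43 to 0.51) lie within the limits, although the Hgf ratio passed with at least 3000 (0.77) or 1500 UMIs (0.53) and with median-of-ratios scaling (0.52), and was 0.03 after subtraction of free RNA, or 0.45 where mixed barcodes were left out first. The Hgf difference was small in gCap-like barcodes (783 and 880 without mixed ones) and larger in classes with less of it, arterial-like (170 and 404, 1.25) and venous-like (245 and 731, 1.58). In aCap-like barcodes without mixed ones the ratios were -1.08 in the Bdnf pair (122 and 57.9) and 0.78 in the Hgf pair (77.3 and 133). Free RNA also held more Gpihbp1 in Hgf iPCKO, 115 against 61.8.

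Lpl, the lipase bound by Gpihbp1, was higher in both iPCKO libraries and had the widest difference of the partner genes with enough UMIs in the Hgf pair. It was 195, 368, 167 and 1420 CPM in the gate, with ratios of 0.91 (0.88 to 0.95) and 3.09 (3.04 to 3.14). Without mixed barcodes the ratios were 0.88 and 3.15. Most of it lay in gCap-like barcodes, at 479, 863, 366 and 2921 without mixed ones, and in the Hgf pair the arterial-like levels were 61.6 and 1633. Venous-like (7.53 and 256) and aCap-like (12.4 and 273) levels were also higher in Hgf iPCKO. They lie below the levels in free RNA, 45.1 and 322, itself estimated at 4.30 and 5.04% of the gate's RNA without mixed barcodes. Outside these classes, the Hgf libraries held 60.3 and 64.7 in AT2, 359 and 126 in fibroblast, 38.7 and 353 in AT1, 16.0 and 69.5 in club, 36.0 and 153 in ciliated and 37.7 and 826 in lymphatic-like barcodes. The part of free RNA in these Lpl levels was not tested.

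**Figure D4:**
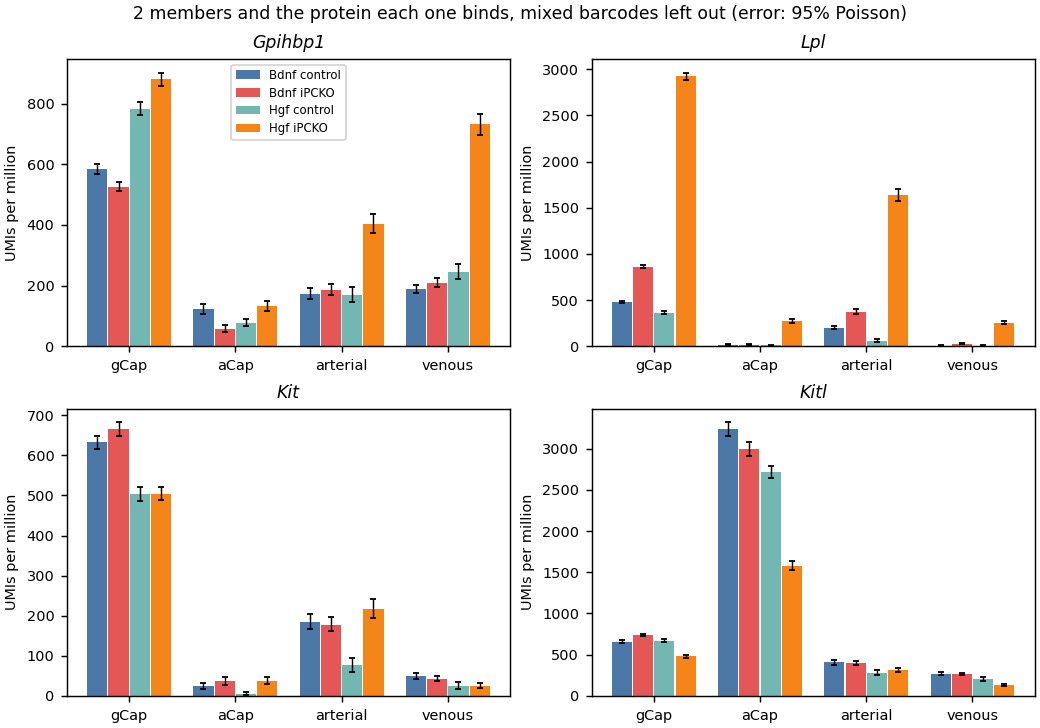
Gpihbp1 and its binding partner Lpl (top), Kit and its ligand Kitl (bottom), in CPM by endothelial subtype class, mixed barcodes left out, with 95% Poisson intervals. Lpl of Hgf iPCKO stands above the other 3 libraries in gCap-like and arterial-like barcodes (2921 and 1633), while Kit of gCap-like barcodes lies at 503 and 504 in the Hgf libraries.

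Kit, the receptor for stem cell factor and a gCap mark, was called in neither pair. It measured 231, 242, 208 and 227 CPM in the gate and 351, 373, 274 and 291 without mixed barcodes. Ratios were 0.07 (0.03 to 0.11) and 0.13 (0.07 to 0.19), and after subtraction of free RNA they were -0.12 and -0.28. Most lay in gCap-like barcodes (632, 666, 503 and 504 without mixed ones). Arterial-like barcodes of the Hgf pair held 76.5 and 217, a ratio of 1.51 (1.15 to 1.87) from 82 and 329 UMIs. Free RNA held 107 and 170, so the control level lies below it, and the part of free RNA in this ratio was not tested. Kitl, its ligand, was highest in aCap-like barcodes, at 2270, 2071, 2176 and 1263 (3236, 2993, 2716 and 1576 without mixed ones), and was lower over the gate in the Hgf pair (-0.70), with -0.02 in the Bdnf pair. Over all partners, 2 of 21 with enough UMIs were lower and 2 higher in the Bdnf pair, and 6 of 20 were lower and 2 higher in the Hgf pair, beside the shares of 6.13 and 5.13% and of 17.6 and 13.6% over all genes.

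In gCap-like barcodes alone, 58.6, 60.2, 64.0 and 56.7% of the gate, 4 members were lower and 1 higher in each pair. Plvap, Aplnr, Itga1 and Gja5 were the lower ones in the Bdnf pair and Aplnr, Apln, Itga1 and Gja5 in the Hgf pair, with Ednrb higher in both. Gja5 of the Hgf pair, at 12.3 and 5.38, lies about at the 11.1 and 6.91 of free RNA. The part of free RNA in its ratio in this class was not tested. By the same rule 6.33% of all genes were lower and 5.24% higher in the Bdnf pair, and 17.3% lower and 13.0% higher in the Hgf pair. The members' medians were -0.23 and -0.48 beside -0.03 and -0.05 over all genes. The Bdnf values did not hold throughout. Without mixed barcodes 3 members were lower and 2 higher with a median of -0.15. After subtraction of free RNA 1 was lower and 2 were higher with a median of 0.085. That subtraction took 76.5 and 82.2% of the RNA of the class as free, against 5.63 and 8.46% without mixed barcodes. It therefore cannot separate free RNA from mixing. In the Hgf pair without mixed barcodes 5 members were lower and 1 higher. The gCap list that assigned the class (Sema3c, Glp1r, Hilpda, Btnl9, Cd93, Ptprb and Scn7a) had 2 genes lower and 1 higher of 7 in the Bdnf pair. In the Hgf pair it had 3 lower and none higher of 6, so that class membership itself rests on genes that differed between the libraries. In aCap-like barcodes, mixed ones included, the median over 8 members with enough UMIs was -0.76 in the Bdnf and 0.57 in the Hgf pair. Over all genes it was -0.01 and -0.02. Plvap, Aplnr, Apln, Itga1 and Gpihbp1 were lower and none higher in the Bdnf pair. Apln, Itga1 and Car4 were lower and Plvap, Aplnr, Gpihbp1 and Kit higher in the Hgf pair. Shares over all genes were not computed for this class.

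Most members were highest in the same endothelial class in every lung library. Car4, Apln and Ednrb were highest in aCap-like barcodes among the 5 endothelial classes, Gja5 in arterial-like, and Aplnr, Kit and Itga1 in gCap-like ones. Plvap and Gpihbp1 had no such class. Plvap was highest in venous-like barcodes of the Bdnf libraries (1212 and 1105) but in arterial-like ones of the Hgf libraries (1306 and 874). Gpihbp1 was higher in gCap-like than in venous-like barcodes, except in Hgf iPCKO (641 and 658). Outside endothelium, levels of Plvap, Aplnr and Gpihbp1 stayed below 40 CPM in each lineage and library. Itga1 was high in pericytes and held 322 to 588 in smooth muscle barcodes, Ednrb reached 333 to 631 in smooth muscle barcodes and 52.5 to 161 in fibroblast barcodes, and Kit reached 25.3 to 159 in the few immune barcodes (34 to 88 per library) left after depletion.

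**Figure D5:**
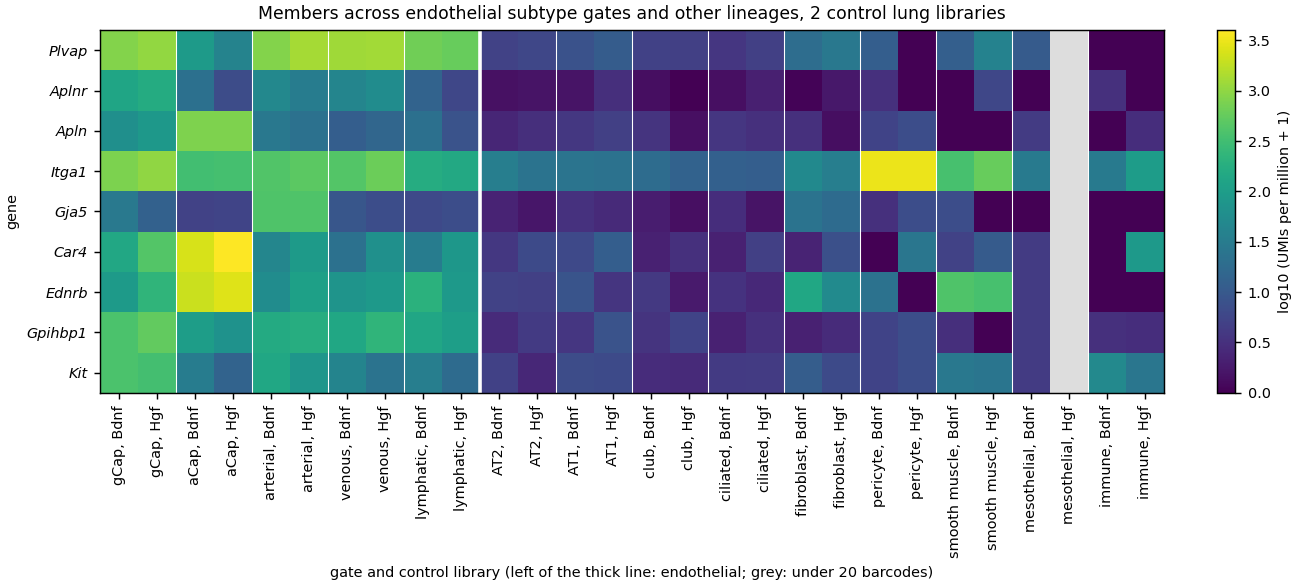
Members (rows) by endothelial class and other lineage (columns, 2 control libraries each), on a log10 scale (CPM, 1 added). Bright cells mark high levels: Car4, Ednrb and Apln in aCap-like barcodes, Gja5 in arterial-like and Itga1 in pericyte barcodes (3162 and 3094). Grey marks a class with fewer than 20 barcodes.

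Likeness was measured as the Pearson correlation of log2 levels (CPM, 1 added) over 54 points (14 classes in 4 libraries, of at least 20 barcodes) with 18740 genes. Points share libraries, depth and class markers, so these values only describe. Plvap was most like Lyve1 (0.94), Clec14a and Mmrn2, Aplnr like Acer2 (0.91), Gpihbp1 like Gm9889 (0.94), Lyve1 and She, and Kit like Cd93 (0.85). Apln was most like Edil3 (0.89) and Rprml (0.88), Car4 like Prx (0.89), Ednrb like Tmod2 (0.87), Gja5 like Olfm2 (0.85) and Itga1 like Mcam (0.94). Rprml, Prx, Cd93 and Lyve1 (a lymphatic marker) assign the classes, so likeness to them is not independent of how the points were made.

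In endothelial barcodes of the P12 cortex, 921 in Nodal control and 1617 in Nodal iPCKO, 5 members were low. Plvap was 4.00 and 3.21 CPM, Gpihbp1 5.27 and 6.42, Gja5 12.3 and 10.8, Ednrb 46.2 and 20.7 and Kit 27.5 and 47.7, each below all 4 lung libraries. Apln (475 and 467) was above all 4 lung libraries, and Itga1 (317 and 282) was below all 4. These orders are the same without mixed barcodes, which were 7.71 and 7.11% of the cortex gates. Aplnr was 124 and 115 beside a lung range of 55.1 to 105, but 131 and 121 beside 84.0 to 139 without mixed barcodes, and so within the lung range. Car4 was 1143 and 916 beside 319 to 937, and 1193 and 952 beside 508 to 1249 without mixed barcodes. Organ, age and preparation differ together between these libraries, and their parts cannot be told apart.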

How the data were processed

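The scRNA-seq matrices of 6 libraries were used as deposited. According to their methods and labels, the authors aligned reads to GRCm39 with STARsolo (STAR 2.7.10a), kept all barcode combinations and shared multi-mapping reads by expectation maximization, so the deposited matrices hold estimated counts of UMIs without normalization. The methods name Gencode vM33 and the availability statement M26. Files of barcode parts were not used.

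Members and lists were chosen with earlier results of these data known. UMIs were summed per library and class and divided by all UMIs of the class. Library totals were 73446420 and 69403166 UMIs (Hgf) and 169814433 and 186701379 (Bdnf). Intervals are exact Poisson for levels, conditional exact for ratios and Clopper-Pearson for shares (scipy 1.17.1), at 95%, and cover counting error only. A gene needed 50 UMIs in both libraries together. Symbols occurring more than once were not used. Subtypes needed 2 markers and other lineages 3, by the highest share of their list without ties, from 5 and 9 lists. No doublet caller was run: mixed barcodes were counted and left out in an alternative. Named genes are the members, their listed partners, class markers that were called and the 3 genes most like each member. Code was tested on simulated counts. Thinning drew UMIs without replacement, and left out 17 and 21 endothelial barcodes of the Hgf libraries. Without replicates no p-value was computed.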

Additional observations from a re-analysis of the deposited data

Results flagged for a closer look

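Car4 and Gpihbp1 had log2 ratios of opposite sign in the Bdnf and Hgf pairs over the endothelial gate. The counting intervals leave out 0 in each pair, but only the Hgf value of Car4 passes the limit of 0.5. Car4 had log2 ratios of 0.06 in the Bdnf and -0.62 in the Hgf pair, a difference of -0.68 between the pairs. Gpihbp1 had -0.07 and 0.47, a difference of 0.54. With 1 library per genotype this difference was not tested. The small Bdnf values change sign under 1 alternative each, Car4 to -0.09 with at least 3000 UMIs and Gpihbp1 to 0.03 after subtraction of free RNA, where its Hgf value is 0.03 as well.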

How the results depend on the processing

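No paired analysis was possible because each condition has 1 library, and no replicate could be left out. In total 414 member ratios were recomputed under up to 12 alternatives per pair and gate, and none of the called ones turned direction, while uncalled ratios did: Ednrb of the Hgf gate turned to -0.45 at 3000 UMIs and -0.26 after subtraction of free RNA, which also turned Gpihbp1 (-0.31) and Kit (-0.48) of the Hgf gCap-like class, and uncalled Apln, Car4, Gpihbp1 and Kit of the Bdnf pair turned under at least 1 alternative. Leaving out mixed barcodes gave 3 lower and 1 higher in the Bdnf gate (median -0.36), and 2 higher in its gCap-like class (median -0.15). Free RNA was estimated from the 4 secretory genes at 73.3, 75.5, 48.6 and 28.7% of the gate's RNA, mostly through mixed barcodes (4.71, 7.09, 4.3 and 5.04% without them). Its subtraction gave 3 lower in the Bdnf gate (median -0.48) and medians of -1.07 in the Hgf gate and -1.01 in its gCap-like class with 0 higher there. In the Bdnf gCap-like class it gave 1 lower and 2 higher and turned the median to 0.085. Subtraction after leaving out mixed barcodes, chosen after seeing the data, gave 3 lower, 1 higher and a median of -0.32 in the Bdnf gate, and 2 higher and -0.11 in its gCap-like class. At 3000 UMIs the medians were -0.62 (Bdnf), -0.45 (Hgf, 1 higher) and -0.36 (Hgf gCap-like, 0 higher), and at 1500 UMIs 1 was higher in the Hgf gate. Counting barcodes equally gave -0.40 with 1 higher (Bdnf), 2 higher (Bdnf gCap-like) and -0.51 with 1 higher (Hgf). Thinning gave -0.37 with 1 higher (Bdnf), -0.31 with 2 higher (Bdnf gCap-like) and -0.51 (Hgf). Median-of-ratios scaling gave 2 higher in the Bdnf gCap-like class and -0.54 with 1 higher in the Hgf gate. A limit of 0.25, which more genes pass by construction, gave 5 lower and 1 higher (Bdnf), 6 lower and 1 higher (Hgf), and in gCap-like barcodes 4 lower and 2 higher (Bdnf) and 5 lower and 1 higher (Hgf). Weighting classes to the control mix gave -0.44 (Bdnf) and -0.46 (Hgf). Other causes were not tested.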
